A study of Mus musculus with 2 samples.

Results

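The genes described here are those of antigen presentation, complement, Fc receptors and chemokines: 85 genes of the 8251 that had a probe set annotated to a single gene symbol. They were chosen by symbol (H2- genes, B2m, Cd74, Tap, C1q, C1r, C1s, C2, C3, C4, several complement factors, Fcgr, Fcer, and the Ccl, Ccr, Cxcl, Cxcr and Cx3c series), and each gene was read by its brightest probe set. The 85 comprised 17 MHC class I genes including B2m, 12 class II genes including Cd74, 2 TAP transporter genes, 6 complement components, 2 complement regulators, 7 Fc receptors, 23 chemokine ligands and 14 chemokine receptors. The remaining 2 met the rule by their letters only: H2-Ke6, a steroid dehydrogenase gene of the MHC region, and C1qbp, which encodes a mitochondrial protein first found by its binding to C1q.

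RNA came from testes of mice on day 10 after birth, either heterozygous (Mili+/-) or homozygous mutant (Mili-/-) for the gene of the germline Piwi protein MILI. Polyadenylated RNA of each genotype went to 1 array. The labels place the arrest of mutant germ cells early in the first meiotic prophase and the first dying cells at day 11, the day after sampling. The labels name neither the strain nor the way the allele was made, and leave out how many mice each array stands for.

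MHC class I molecules display peptides from inside the cell on the surface, as a heavy chain bound to the light chain beta-2 microglobulin, after the TAP transporter has carried peptides into the endoplasmic reticulum. Class II molecules, assembled with the invariant chain Cd74, present peptides from engulfed material and are largely restricted to professional antigen-presenting cells. C1q, bound to antibody or dying cells, starts the classical complement cascade, Fc receptors bind the constant part of antibodies, and chemokines guide white blood cells through their receptors. The testis is an immune-privileged organ in which class I is low on germ cells, while resident macrophages lie between the tubules.

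The promoters of 4 class I genes and of B2m are shown first, because the class I genes are the largest group with signal on these arrays and differed among themselves. The RefSeq windows of assembly GRCm38.p6 run from 250 bases before to 50 bases after an annotated start and belong to the reference strain, and 61 of the 85 genes had one. H2-K1 and H2-D1 encode the classical class I heavy chains, and H2-Q4 and H2-Q10 nonclassical ones, the latter a secreted protein made mainly by the liver. H2-K1 had 2 windows, of which the first listed is shown. Capitals mark 4 motifs on either strand: CCAAT (the Y box of MHC promoters, which reads ATTGG from the other strand), GAAA repeated after a gap of 2 bases (a core of interferon response elements), GGGATTCCC (letters of the kappa B element in class I enhancer A) and TTTCACTTC (letters of the class I interferon response sequence). The windows lie at chr17:34000298-34000597 (minus strand) for H2-K1, chr17:35262844-35263143 (plus) for H2-D1, chr17:35379367-35379666 (plus) for H2-Q4, chr17:35469839-35470138 (plus) for H2-Q10 and chr2:122147437-122147736 (plus) for B2m.
H2-K1: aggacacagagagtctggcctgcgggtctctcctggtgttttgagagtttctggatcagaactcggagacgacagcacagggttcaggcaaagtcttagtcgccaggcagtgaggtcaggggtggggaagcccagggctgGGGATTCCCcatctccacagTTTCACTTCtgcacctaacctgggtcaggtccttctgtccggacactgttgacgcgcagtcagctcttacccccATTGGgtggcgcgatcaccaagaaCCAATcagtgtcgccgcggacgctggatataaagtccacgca
H2-D1: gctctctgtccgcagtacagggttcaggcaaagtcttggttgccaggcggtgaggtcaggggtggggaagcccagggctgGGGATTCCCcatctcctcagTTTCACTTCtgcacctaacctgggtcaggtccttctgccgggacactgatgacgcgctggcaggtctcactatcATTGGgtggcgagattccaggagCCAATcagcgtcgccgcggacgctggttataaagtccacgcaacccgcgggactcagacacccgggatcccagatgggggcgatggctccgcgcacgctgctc
H2-Q4: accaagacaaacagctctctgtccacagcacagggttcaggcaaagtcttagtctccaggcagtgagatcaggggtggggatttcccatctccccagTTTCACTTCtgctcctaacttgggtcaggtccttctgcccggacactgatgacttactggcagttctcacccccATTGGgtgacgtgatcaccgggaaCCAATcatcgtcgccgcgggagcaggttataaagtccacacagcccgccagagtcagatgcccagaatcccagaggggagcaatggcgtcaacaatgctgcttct
H2-Q10: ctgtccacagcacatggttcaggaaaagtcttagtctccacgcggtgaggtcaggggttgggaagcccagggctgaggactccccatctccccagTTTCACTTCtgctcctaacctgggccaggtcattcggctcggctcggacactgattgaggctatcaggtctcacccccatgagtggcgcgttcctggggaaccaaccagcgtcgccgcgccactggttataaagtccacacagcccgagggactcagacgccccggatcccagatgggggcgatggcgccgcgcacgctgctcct
B2m: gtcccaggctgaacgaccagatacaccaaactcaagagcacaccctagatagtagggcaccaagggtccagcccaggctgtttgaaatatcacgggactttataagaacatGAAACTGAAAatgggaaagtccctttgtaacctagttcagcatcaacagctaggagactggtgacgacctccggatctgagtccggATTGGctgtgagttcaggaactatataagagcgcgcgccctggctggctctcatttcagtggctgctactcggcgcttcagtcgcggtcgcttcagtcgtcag

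H2-K1 and H2-D1 held GGGATTCCC, found in 0.353% of all 32851 windows, and both held TTTCACTTC, found in 0.505%. Both motifs were added after these sequences were seen, so the shares only describe how common the letters are. H2-Q4 held TTTCACTTC and CCAAT on each strand. It did not hold GGGATTCCC as spelled, but its window reads gggatttccc, which matches the looser kappa B letters given below. H2-Q10 held TTTCACTTC and neither CCAAT nor GGGATTCCC. The B2m window held CCAAT once, at position -53 from the start, and the spaced GAAA repeat, present in 3.44% of windows, at position -139. CCAAT occurred in 9 of the 10 class I genes with a window and in 37.4% of all windows. The looser kappa B letters, GGG and CC with 5 bases between, occurred in 50.8% of all windows and in 7 of the 10. Every gene shown was among the 7, and these letters were left in lower case where they stood alone. CCAAT on the forward strand stood at position 8 in the H2-K1 window and at -53 in that of H2-D1, so these windows are placed differently against their starts. Over the aligned stretches, the H2-D1 window was 90.7% identical to that of H2-K1 and 88.3% identical to that of H2-Q10. A match describes letters, not a bound site, and a link between these letters and the signals was not tested.

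Signals are linear intensities as deposited, with a median of 38.5 on the Mili+/- array and 41.5 on the Mili-/- array. Differences are log2, Mili-/- minus Mili+/-, after each array was centred on its median and signals under the 20th percentile (6.3 and 7.0) were raised to it. A gene was compared if its brighter array reached that array's median, which 5095 genes did; their median difference was -0.13, and the central 95% lay between -0.69 and 0.58. With 1 array per genotype no value has a replicate and no test was possible, so the 1 yardstick at hand was how far probe sets of a gene disagreed, an SD of 0.31 over 720 genes. Signals of different probe sets are not compared with each other. RNA integrity was alike, with 3' to 5' control ratios of 1.53 (Mili+/-) and 1.52 (Mili-/-) for Actb and of 1.001 and 1.008 for Gapdh. The targeted transcript, Piwil2, could not be checked, since no probe set names it.

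Of the 85 genes, 24 passed the brightness filter and 61 did not. In the Mili-/- array, 1 of the 24 was at least 2-fold higher, against 0.314% of all genes past the filter, and none was 2-fold lower, against 0.53%. At 1.5-fold, 3 were higher (2.47% of all genes) and 1 was lower (5.04%). Scaling moved the split over all genes: 2-fold calls were 0.589% higher and 0.334% lower without centring, 0.491% and 0.451% after loess, and 0.471% each way once the arrays were quantile normalized. The members' median was -0.01, which is 0.11 above the median of all genes, and 17 of the 24 lay above that median.

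The way a gene passed the filter went along with the size of its difference. The 4 members outside the central 95% range were Ccl22, H2-M9, Cx3cr1 and Tap1, and each passed through a single array, which favours a large difference in that array's direction. Of all genes that passed through 1 array alone, 35.9% (133 of 370) lay outside the range, against 2.60% of those that passed on both arrays. The 19 members that passed on both arrays all lay inside it, from -0.53 for H2-Q4 to 0.49 for Cd74.

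**Figure D1:**
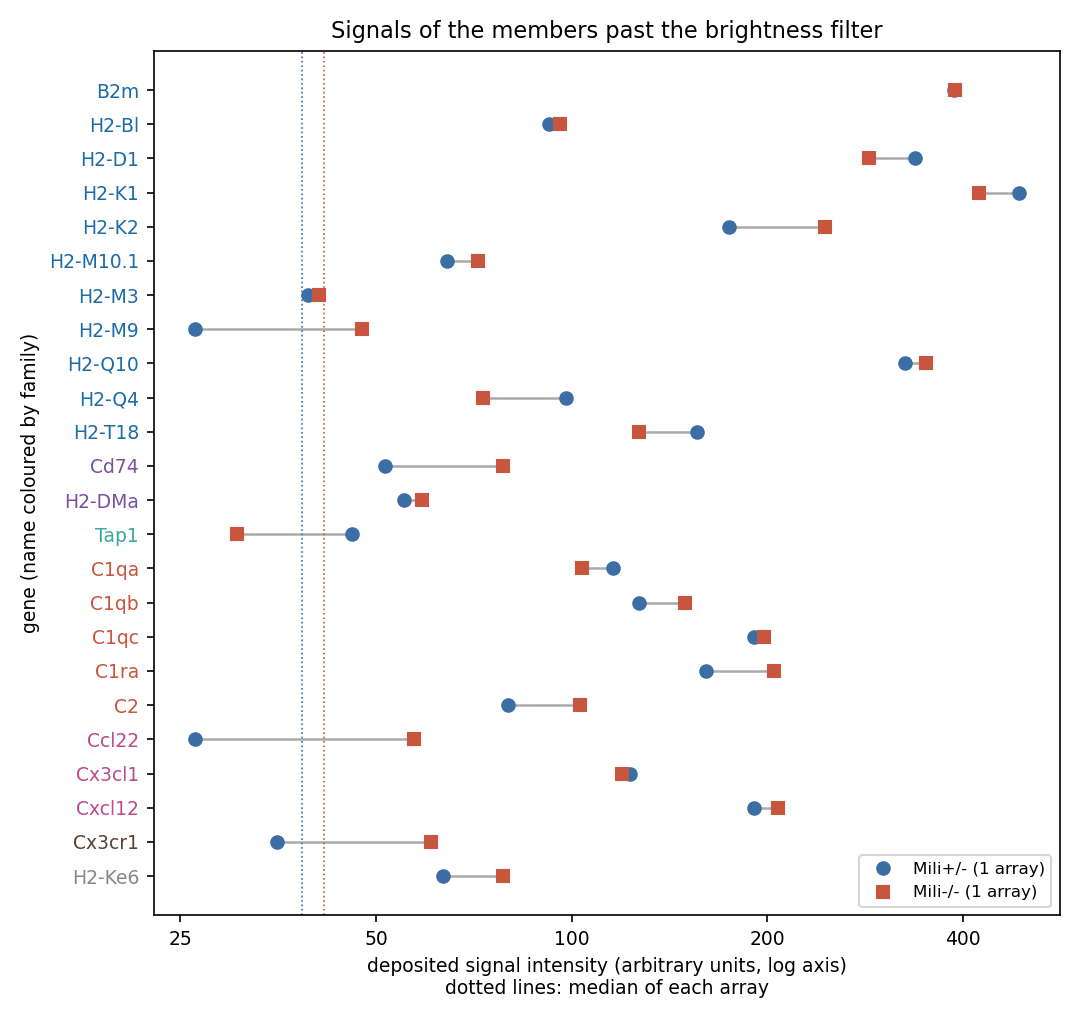
Deposited signal (log axis) of the 24 members past the brightness filter on the Mili+/- array (circles) and the Mili-/- array (squares), 1 array each, with gene names coloured by family and dotted lines at each array's median. Ccl22 has the widest gap, from 26.3 to 57.2, and the circles or squares of Ccl22, H2-M9, Cx3cr1 and Tap1 fall on both sides of the medians, while B2m overlaps at 387.9 and 389.9.

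Among class I heavy chains, the classical genes were lower in the Mili-/- array. H2-K1 read 487.9 in Mili+/- and 424.3 in Mili-/-, a difference of -0.31. Its second probe set past the filter read 108.6 and 69.1 (-0.76), and another, dim one went the other way (0.47). H2-D1 read 337.7 and 287.5 (-0.34), and its second probe set past the filter read 232.1 and 179.9 (-0.48). The 4 bright probe sets of both classical genes thus lay below the median of all genes. The brightest of H2-K1 lay 0.19 below it and the brightest of H2-D1 0.22, each less than the 0.31 by which probe sets of a gene scatter. The second probe sets, at -0.76 for H2-K1 and -0.48 for H2-D1, lay below it by more than that scatter. The differences of these genes stayed below 0 without centring (-0.20 for H2-K1 and -0.23 for H2-D1), after quantile normalization (-0.20 and -0.20) and after loess (-0.19 and -0.21).

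Nonclassical class I genes went both ways. H2-Q4 read 97.9 in Mili+/- and 73.0 in Mili-/- (-0.53), and ranked 336th from the lowest of 5095 genes. H2-T18, a gene of the thymus leukaemia antigen region, read 155.8 and 127.2 (-0.40). H2-K2, by contrast, was higher in the Mili-/- array at 174.6 and 245.6 (0.38), in a set that may read more than 1 gene. Sets naming H2-K2 together with other genes went the other way. One past the filter read 153.3 and 113.5 (-0.54), and a dim one read 21.8 and 11.4 (-1.05). H2-Q10 read 326.4 and 350.8 (-0.01) and H2-Bl 92.4 and 95.9 (-0.06), and both lay above the median of all genes.

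The M genes of class I, several of which are known from the vomeronasal organ, went both ways among their probe sets. H2-M9 read 26.3 in Mili+/- and 47.5 in Mili-/- (0.74), passing through the Mili-/- array alone. H2-M10.1 read 64.4 and 71.9 (0.05), while its dim probe sets read 32.9 and 32.8 (-0.11) and 11.5 and 4.2 (-0.83), for a mean of -0.30 over its probe sets. H2-M3, which presents formylated peptides of bacterial origin, read 39.3 and 40.9 (-0.05) and passed through the Mili+/- array alone. B2m, the light chain of class I molecules, was level at 387.9 and 389.9. Its difference of -0.10 lay 0.02 above the median of all genes, and changed sign together with that of H2-Q10 without centring, after quantile normalization and after loess.

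Probe sets of class I genes share sequence, which limits what a single name means. Of the 35 class I probe sets, 10 were annotated to several genes and 24 carried a suffix that marks shared sequence or relaxed probe selection. Past the filter stood 18, with a median of -0.30, against -0.12 over all 6484 probe sets past the filter and -0.05 over those with such a suffix. These 18 overlap, since H2-K1 and H2-D1 each enter with 2 probe sets and the sets annotated to several genes name some genes again. Counted by gene, the median of the 11 class I genes past the filter was -0.06, against -0.13 over all genes, and 7 of the 11 lay above the latter. Of the 18, 15 were below 0, against 67.3% of all probe sets past the filter, and 10 were below -0.12. The 5 annotated to several class I genes were between -0.60 and -0.02. The lowest, a set naming H2-T3 and H2-T18, read 42.6 and 30.4 and passed through the Mili+/- array alone. A dim set naming the same H2-T3 and H2-T18 read 22.2 and 24.3 (0.02). A set naming 7 class I symbols, among them H2-K1, H2-K2, H2-D1 and H2-T23, read 153.3 and 113.5, and a set naming H2-Q9, H2-Q7 and H2-Q5 read 184.0 and 163.4. Another pair named the same H2-T9, H2-T22 and H2-T10 and disagreed, at 76.3 and 63.8 (-0.37) and at 64.4 and 68.7 (-0.02). Without probe sets of shared sequence, H2-M9 and B2m were the class I probe sets past the filter, so the lower values rest on probe sets that may read more than 1 gene.

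**Figure D2:**
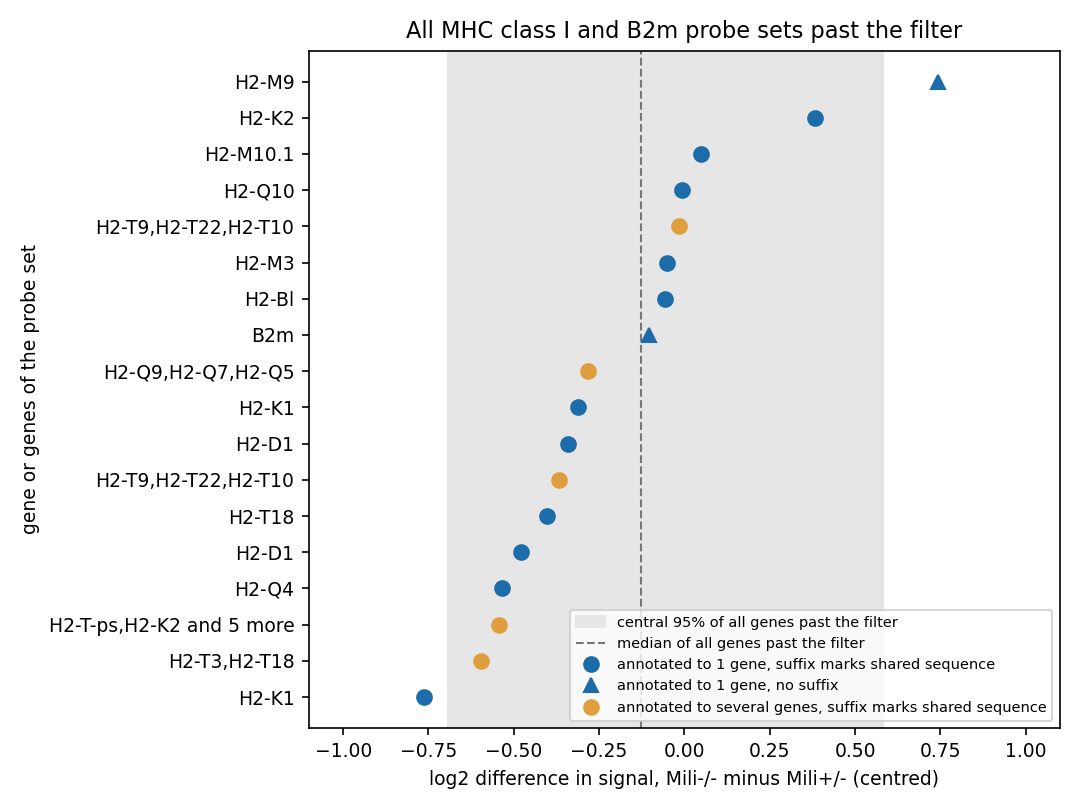
Log2 difference (Mili-/- minus Mili+/-) of the 18 MHC class I and B2m probe sets past the filter, 1 array per genotype; blue is annotated to 1 gene, orange to several, and triangles have no suffix for shared sequence. The grey band is the central 95% of all genes past the filter and the dashed line their median. H2-K1 (-0.76) lies below the band and H2-M9 (0.74) above it. All 5 orange points lie below 0, and the lowest of them passed through the Mili+/- array alone.

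Genes that load class I molecules were read beside them. Tap1, a chain of the peptide transporter, read 45.9 in Mili+/- and 30.5 in Mili-/- (-0.70, 122nd from the lowest of 5095 genes). It passed through the Mili+/- array alone, its dim second probe set read 14.1 and 13.9 (-0.13), and the mean over both was -0.42. Tap2, the partner chain, was dim at 6.9 and 5.1. Psmb9, an immunoproteasome gene that neighbours Tap1 on the opposite strand, did not pass the filter, at 29.5 and 15.7. Of the other immunoproteasome genes, Psmb8 read 34.6 and 45.7 (0.29, through the Mili-/- array alone) and Psmb10 150.8 and 153.3 (-0.09). Of 25 further genes of antigen processing, 19 were measured and 11 passed the filter, with a median of -0.18, 6 of them below the median of all genes and none past 2-fold. The lowest was Pdia3, an oxidoreductase of the peptide-loading complex, at 399.4 and 280.3 (-0.62). Tapbp, which encodes the tapasin bridge between TAP and class I, stood at 434.3 and 387.3 (-0.28). Ifi30, a lysosomal thiol reductase gene, stood at -0.41 and passed through the Mili+/- array alone. Rfxank, a subunit gene of the factor that binds class II promoters, read 40.1 and 53.4 (0.30).

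Class II genes were dim except for 2. Cd74, the invariant chain, read 51.6 in Mili+/- and 78.3 in Mili-/- (0.49), ranking 185th from the highest. H2-DMa, a chain of the peptide exchange factor of class II, read 55.2 and 58.8 (-0.02), a value that turned positive under the other scalings. The other 10 class II genes lay between 2.0 and 33.4 on either array. The chains of the peptide-binding molecules were too dim to be set beside Cd74. H2-Aa, the alpha chain of I-A, was under the floor on both arrays at 4.2 and 3.9, and its partner H2-Ab1 read 32.2 and 23.4. H2-Eb1 read 19.7 and 33.4, and H2-Ea 7.1 and 2.5. H2-Oa, a chain of the inhibitor of peptide exchange, read 5.3 and 22.7. Ciita, the master regulator of class II transcription, was dim too, at 21.3 and 32.5.

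Of the complement components, 5 of 6 passed the filter, all on both arrays. The 3 chains of C1q read 115.7 and 103.8 for C1qa (-0.27), 127.0 and 149.3 for C1qb (0.12), and 191.0 and 198.0 for C1qc (-0.06). These genes encode subunits of the same molecule, and their differences spanned 0 without a shared direction. That of C1qc turned positive under the other scalings. A dim second probe set of C1qb read 22.6 and 40.3 (0.72), for a mean of 0.42 over its probe sets. C1ra, a protease of the C1 complex, read 161.0 and 205.1 (0.24), with 86.4 and 113.2 (0.28) in a second probe set, both with a suffix that marks shared sequence. C2, the protease that C1 cleaves next, read 79.7 and 103.0 (0.26). Its dim second probe set read 7.5 and 12.2 (0.59), and the mean over both was 0.43. C1ra and C2 ranked 540th and 492nd from the highest, inside the central range. Cfb, the counterpart of C2 in the alternative pathway, was dim at 14.1 and 21.4, and so were the regulators C4bp (2.5 and 2.0) and Cfi (0.7 and 1.1). A probe set shared by C4a and C4b did not pass the filter, at 31.8 and 30.7. C3 and Cfd were not analysed here. Of 29 other complement genes, 23 were measured and 6 passed, with a median of -0.08 and none past 2-fold. Among them Cr1l, the rodent regulator Crry of the cell surface, read 101.5 and 73.9 (-0.57). Cd93 read 43.8 and 39.0 (-0.28, through the Mili+/- array alone), and the inhibitor gene Cd59a of the membrane attack complex read 170.3 and 167.4 (-0.13).

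None of the 7 Fc receptor genes passed the filter, with signals from 1.3 to 33. Fcgr3 and Fcgr2b, an activating and an inhibitory receptor for IgG, read 13.0 and 20.8, and 18.5 and 19.6. Fcgr1, the high-affinity receptor, read 33 and 20.1 in a probe set of shared sequence and 3.3 and 3.6 in another. Fcer1g, the signalling chain that several of them share, was under the floor on both arrays at 5.9 and 3.0. Fcgrt, the neonatal receptor that carries IgG across cells, read 15.8 and 1.3. Such low signals give no ordered comparison. Of 14 signalling genes behind these receptors, 12 were measured and 4 passed, none past 2-fold, at a median of 0.18. The adaptor gene Lat read 45.4 and 83.6 (0.77) and the kinase gene Fyn 414.4 and 358.9 (-0.32). The kinase gene Syk read 70.9 and 103.6 (0.44, or 0.24 as the mean over its probe sets). Tyrobp, the adaptor of myeloid receptors, was level at 53.6 and 55.2 (-0.07).

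Chemokine ligands gave the only member past 2-fold. Ccl22, a ligand of Ccr4 known from dendritic cells and macrophages, read 26.3 in Mili+/- and 57.2 in Mili-/-, which is 2.02-fold after centring (1.01, 15th from the highest of 5095 genes). It passed through the Mili-/- array alone and had no second probe set. Without centring its difference was 1.12, and it lay between 1.01 and 1.12 under every setting that kept it, but it was left out with the filter at the 75th percentile or on both arrays. Its receptor gene Ccr4 was under the floor on both arrays, at 5.3 and 6.1.

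The other 2 ligands past the filter are made by tissue cells. Cxcl12, which holds Cxcr4-bearing cells in their niche, read 191.1 and 208.3 (0.01). Its second probe set past the filter differed, at 49.8 and 32.0 (-0.75), but passed through the Mili+/- array alone. The dim remaining one read 14.4 and 3.6, so the mean over the probe sets of Cxcl12 was -0.63. Cx3cl1, the membrane-bound chemokine fractalkine, was level at 123.2 and 119.6 (-0.15). Of the other 20 ligands, signals ran from 1.0 to 26.0, and 6 were under the floor on both arrays, among them Ccl5, Cxcl9 and Cxcl10, which draw in T cells. Ccl6 read 5.6 and 26.0, Ccl8 6.1 and 14.7, and the monocyte attractant Ccl2 5.2 and 12.2. Probe sets shared by several genes went both ways. A set annotated to 10 genes, Ccl19 among them, read 38.2 and 61.0 (0.57) and passed through the Mili-/- array alone. One naming Ccl21 copies read 43.5 and 42.0 (-0.16). Both are ligands of Ccr7, which was dim at 7.7 and 6.0. A set naming Ccl27a and Ccl27b read 45.8 and 33.2 (-0.57) and passed through the Mili+/- array alone, while a dim set naming the same genes read 26.6 and 37.9 (0.40).

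Among the 14 chemokine receptors, Cx3cr1 was the only gene past the filter. This receptor of fractalkine, carried by monocytes and macrophages, read 35.2 and 60.8 (0.68, 85th from the highest) and passed through the Mili-/- array alone. Cxcr4 read 15.5 and 16.3. The remaining 12 read at most 11, and 7 were under the floor on both arrays. Ccr1 and the neighbouring copy Ccr1l1 had the same signals, 4.3 and 6.9, in separate probe sets. Of 15 chemokine-related genes outside the series named above, 12 were measured and 6 passed, at a median of 0.23 with none past 2-fold. Xcr1, a receptor of cross-presenting dendritic cells, read 33.4 and 54.9 (0.61), Ccrl2 read 31.1 and 47.1 (0.49) and the macrophage growth factor gene Csf1 43.1 and 56.5 (0.28). Xcr1 and Ccrl2 passed through the Mili-/- array alone. Ackr3, a scavenging receptor of Cxcl12, was level at 94.9 and 97.0 (-0.08).

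**Figure D3:**
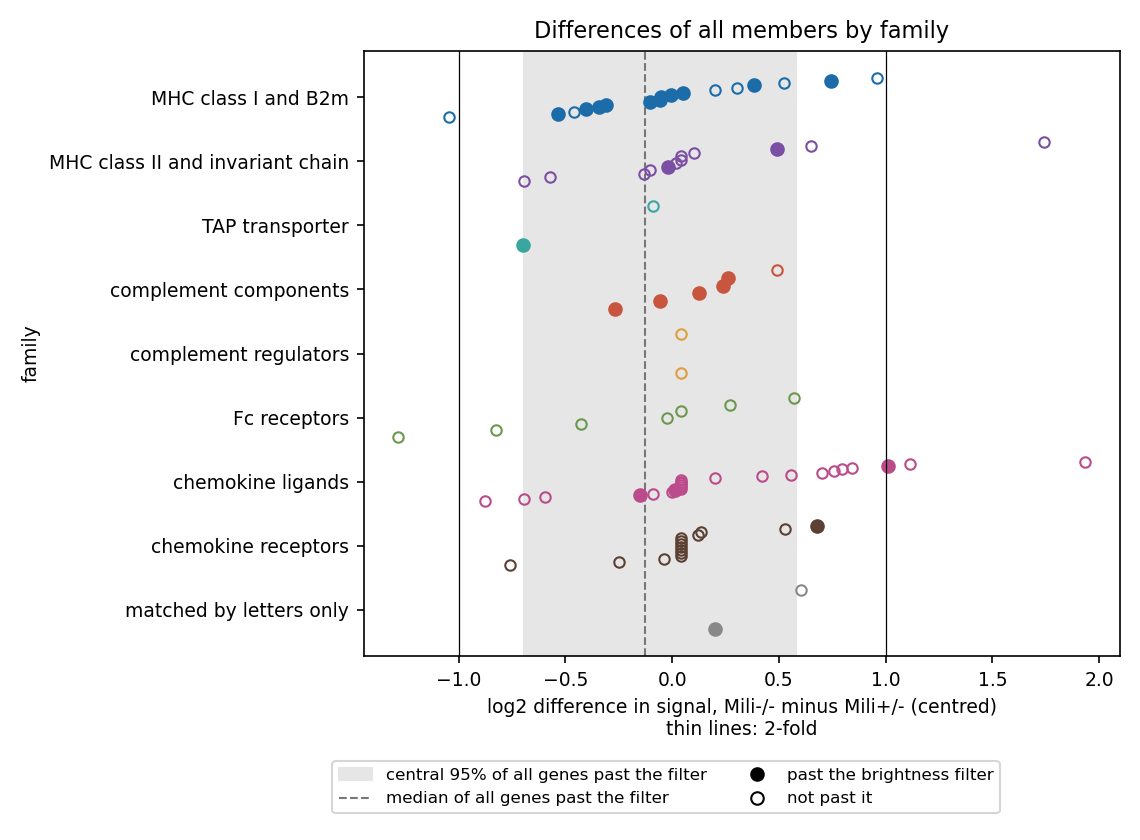
Log2 difference (Mili-/- minus Mili+/-, 1 array each) of all 85 genes by family, filled where past the brightness filter (24) and open where not (61), spread vertically by rank within a family. The grey band is the central 95% of all genes past the filter, the dashed line their median (-0.13) and the thin lines mark 2-fold; Ccl22 is the only filled point past a thin line, and points stacked at 0.04 are genes under the floor on both arrays.

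Interferons raise class I, Tap1 and several chemokines, so a list of interferon response genes was read beside them. Of 26 genes, 22 were measured and 9 passed, with a median of -0.12 against -0.13 over all genes, and none was past 2-fold. Irf7 read 26.9 and 51.6 (0.83) and passed through the Mili-/- array alone. Irf1, which binds class I and Tap1 promoters, read 93.1 and 77.5 (-0.37), and the GTPase gene Gbp3 68.9 and 56.0 (-0.41).

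Markers of the cells that could carry these transcripts were measured in the same RNA. The testis was marked by 14 of 14 measured Sertoli genes and 8 of 11 germ cell genes past the filter. The summed signal of the germ cell list was 2802.8 in Mili+/- and 2331.5 in Mili-/- (median -0.58), and that of the Sertoli list 6985.5 and 7973.7 (median 0.06). In RNA of whole testes, fewer cells of a type and less RNA per cell cannot be told apart. Of the macrophage genes, 9 of 15 passed the filter, with summed signals of 803.2 and 891.2 and a median of -0.07. Csf1r, the defining receptor, read 117.2 and 107.4 (-0.24), Cd68 61.4 and 70.9 (0.10) and Cd14 63.1 and 90.4 (0.41). Mpeg1 read 77.9 and 124.4 (0.57, or 0.30 as the mean over its probe sets) and Lyz2 110.0 and 87.5 (-0.44, or -0.20). Adgre1, Itgam and Ptprc were under the floor on both arrays, at 2.0 to 6.2. Dendritic cell genes had 5 of 7 past the filter, sums of 238.2 and 326.8 and a median of 0.47, and 3 of the 5 passed through the Mili-/- array alone.

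Few markers of other white blood cells passed the filter. Of T cell genes 1 of 10 passed, of B cell genes 1 of 8, of NK cell genes 0 of 6, of mast cell genes 2 of 8 and of neutrophil genes 2 of 9. Their summed signals were 93.6 and 125.2, 145.1 and 158.4, 38.4 and 51.0, 178.7 and 246.4, and 168.5 and 270.6 in that order. The neutrophil genes past it had the highest median of any list, 0.89, with Csf3r at 70.2 and 126 (0.73, or 0.33 as the mean over its probe sets) and Lcn2, which passed through the Mili-/- array alone, at 19.4 and 43.1 (1.04, past 2-fold). The mast cell genes Tpsb2 and Hdc read 63.4 and 94.4 (0.46) and 68.1 and 80.0 (0.12). The T cell gene Cd4 read 37.8 and 56.5 (0.47, through the Mili-/- array alone) and the B cell gene Ighm 52.2 and 31.4 (-0.84, through the Mili+/- array alone, and 0.16 as the mean over its probe sets). Cd3d, Cd3e and Cd3g, the defining chains of T cells, read between 0.9 and 7.7. Adipocyte genes (6 of 10 past the filter, sums of 368.6 and 655.9, median 0.77) and erythroid genes (5 of 7, sums of 2169.6 and 2840.6, median 0.77) had higher sums in the Mili-/- array. Of these, 3 adipocyte and 2 erythroid genes owed their place to the Mili-/- array only, a route that leans towards a higher value there. The erythroid genes Tspo2 (0.95), Hba-a1 (0.28) and Hbb-b2 (0.17) passed on both arrays. So did the adipocyte genes Scd1 (0.91, or 0.44 as the mean over its probe sets), Lep (0.56, or 0.64) and Lpl (0.18, or -0.07). Endothelial genes summed to 690.2 and 700.0 (4 of 10, median 0.10), Leydig cell genes to 1562.3 and 1814.6 (7 of 9, median -0.23) and peritubular and stromal genes to 7306.0 and 7924.1 (12 of 14, median 0.03). The brightest Leydig cell gene, Nr5a1, read 602.2 and 883.4, while 5 of the 7 past the filter were below 0. Some genes stand in 2 lists, such as Xcr1 (dendritic and chemokine-related), Tyrobp (macrophage and Fc receptor signalling) and Clu (Sertoli and complement). No marker was listed at 0. The part of any of these cell types in the differences of Ccl22, Cx3cr1, Cd74, H2-M9 or the class I genes was not tested.

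**Figure D4:**
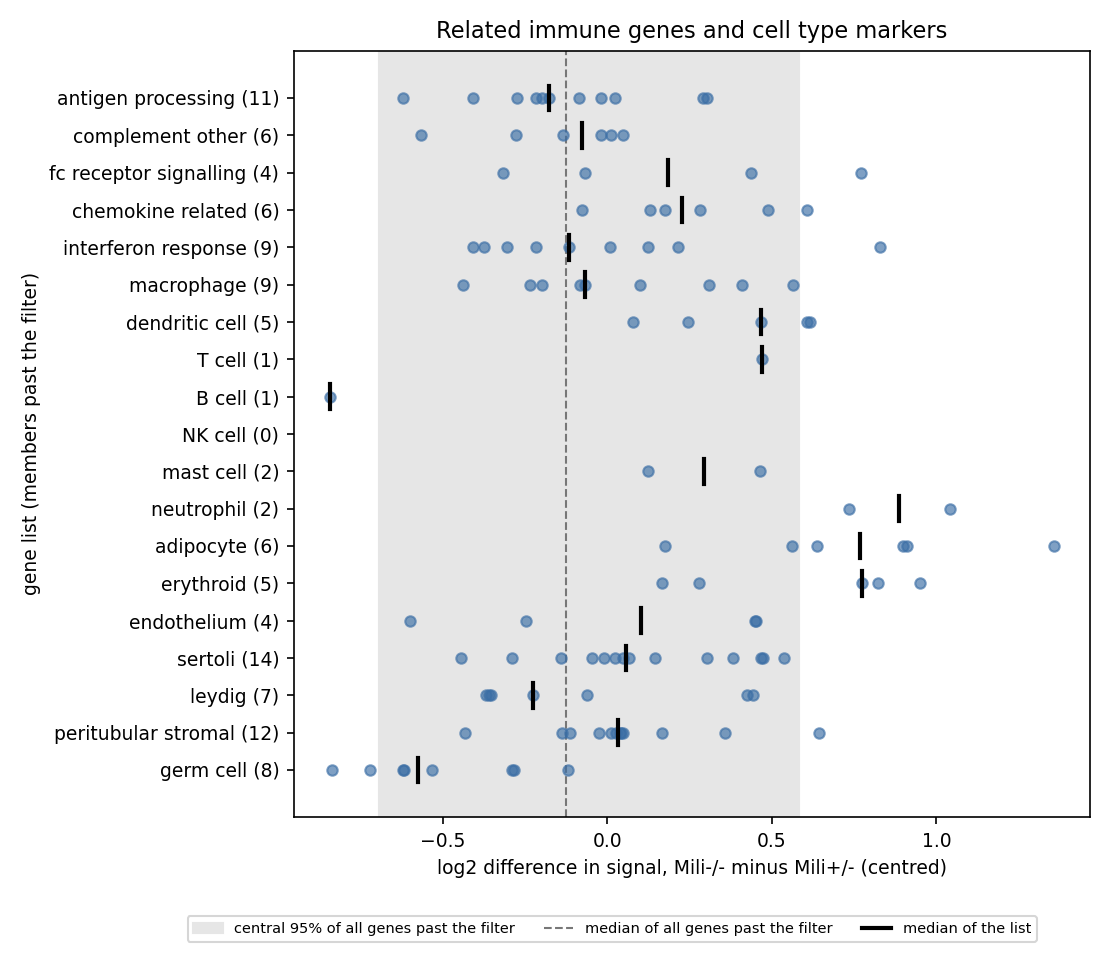
Log2 difference (Mili-/- minus Mili+/-, 1 array each) of related immune genes and cell type markers past the filter, 1 point per gene, with the number of genes in brackets and black bars at the list medians; grey band and dashed line as for all genes past the filter. Germ cell markers sit to the left (median -0.58), neutrophil (0.89), adipocyte and erythroid markers (0.77 each) to the right, and macrophage markers straddle the dashed line (-0.07).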

How the data were processed

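Each genotype had 1 array, so no p-value is given. The authors deposited a linear signal intensity for every probe set. From the values these were already brought to a common level, since their trimmed means were 99.98 on each array (2% left out at either end). How background was corrected, and with what software, is not stated in the sources used here. Of 12422 non-control probe sets, 10833 had 1 symbol in the platform annotation, 396 several and 1193 none; symbols were updated through the Entrez ID (RefSeq, GRCm38.p6), which changed no symbol of the 85 genes. Signals were floored at the 20th percentile, turned into log2 and centred by array median, which removed a shift of 0.11. Each gene was represented by its brightest probe set, by mean signal over both arrays. Sums over a list use the signals as deposited.

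Named genes were, per family, the 4 with the largest difference past the filter, the 3 with the highest signal, and those past 2-fold or with several probe sets past the filter, and per list of related immune genes the 3 with the largest difference. Any other gene was named after its values were seen. The genes, lists and tests were chosen with earlier results of these data known, and GGGATTCCC and TTTCACTTC were added after the sequences were seen. Simulated arrays with known changes were used to test the code. The alternatives were other scalings, floors, filters, fold thresholds and probe set rules. Python 3.11.15, NumPy 2.4.6, pandas 2.3.3, statsmodels 0.14.6 and matplotlib 3.10.9 were used.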

Additional observations from a re-analysis of the deposited data

How the results depend on the processing

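No paired analysis was possible because each genotype had 1 array, and leaving out a replicate was not possible for the same reason. The median of the 24 genes past the filter, -0.01, was 0.10 without centring, 0.11 after quantile normalization and 0.11 after loess; over the median of all genes it lay 0.11, 0.12 and 0.12 higher in turn, and 0.05 higher with the mean over probe sets. Ccl22 was the 1 gene at least 2-fold higher. The count was 0 with the filter at the 75th percentile (0.0718% of all genes) and 0 with both arrays required to pass (0.0423%). It was 3 at 1.5-fold (2.47%), 0 at 3-fold (0.0589%) and 4 without the filter (Ccl22, Ccl6, Ccl8 and H2-Oa). The count of genes 2-fold lower, 0, was 1 at 1.5-fold (Tap1, against 5.04% of all genes) and 2 without the filter (Fcgrt and H2-Q1). Without the filter 1.9% of all genes were 2-fold higher and 1.79% lower. Of the 21 named genes, 4 changed sign under each of the other scalings (B2m, H2-Q10, H2-DMa and C1qc), and Cxcl12 did with the mean over probe sets (-0.63). The class I median, -0.06, was 0.05 without centring and 0.32 without probe sets of shared sequence, which left 2 genes. Signals near the floor limit what can be said of the Fc receptors and of most chemokines and their receptors.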
